A study of Homo sapiens with 32 samples.

Results

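The regions described here carried an m6A peak in every library of the ccRCC line 786-O and in no library of the proximal tubule line RPTEC. Autosomal peaks of 16 lists were merged where they overlapped, which gave 96019 regions. Of these, 7382 were called in all 8 786-O libraries, and 167 of the 7382 were called in none of the 8 RPTEC libraries. The members were therefore chosen by the peak calls themselves, so their presence in 786-O and absence from RPTEC is a description and was not tested. They make up 0.174% of all merged regions and 2.26% of the regions called in all 8 786-O libraries. A region is called in a library if at least 1 base of it lies under a peak of that library, and absence means that no peak passed the authors' threshold.

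Methylated RNA immunoprecipitation sequencing (MeRIP-seq) was run on 2 human kidney cell lines, 786-O, which comes from a clear cell renal cell carcinoma and lacks functional VHL, and RPTEC, an immortalized line of renal proximal tubule epithelium that stands in for normal tubule. In each, 4 lines were profiled: the unmodified parent (WT), the SETD2 knockout clones SETD2KO-1 and SETD2KO-2, and SETD2KO-1R, a clone of SETD2KO-1 that carries a full-length FLAG-tagged SETD2 transgene. SETD2 is the methyltransferase that lays down H3K36me3 over transcribed gene bodies. Each line gave 2 immunoprecipitated (IP) libraries, and the term SETD2-expressing below covers WT together with SETD2KO-1R. All RPTEC lines share their immortalization, every knockout or rescued line is 1 clone, and nothing in the labels says that the replicates came from separate cultures, so p-values measure only the spread between these libraries. The RPTEC lists were shorter, with 18432 to 30341 autosomal peaks, than the 786-O lists, with 24797 to 38317 peaks. Read counts under the peaks were not used here, so the depth at each region is unknown. Without levels of the transcripts, a gene that is not transcribed in RPTEC and a transcript that is present there without m6A cannot be told apart.

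m6A is placed on nascent RNA by a complex built around METTL3 and METTL14, mostly at adenosines within a short consensus whose core is GGAC. It is read by YTH-domain proteins, which alter the splicing, translation and decay of the transcript, and it is most abundant in long internal exons and around stop codons. Because only transcribed RNA can carry the mark, a set of m6A regions also traces which genes a cell line transcribes.

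The identity of the 2 cell lines was checked with peaks in marker genes. The kidney epithelium markers PAX8, PAX2, CDH6 and LHX1 had a peak in all 8 libraries of both lines. Of 8 proximal tubule markers, 4 had a peak in any 786-O library and 2 in any RPTEC library. LRP2, AQP1, SLC34A1 and HNF4A had no peak in any library of either line, and GGT1 had one in all 8 of both. Of the other proximal tubule markers, SLC5A2, the apical glucose transporter, had a peak in 8 786-O and 0 RPTEC libraries, whereas ANPEP, a brush border aminopeptidase, had one in 2 786-O and 8 RPTEC libraries. Of 6 epithelial markers, KRT8 and KRT18 were called in all 8 libraries of both lines and CDH1 in none, while EPCAM, KRT7 and KRT19 were called in 0, 0 and 2 786-O libraries and in 2, 4 and 8 RPTEC libraries. Of the 5 ccRCC markers with an entry in the gene table, 4 were called in each line, and CA9 was called in neither. Fibroblast, endothelial and immune markers were called in 2 of 6, 0 of 5 and 1 of 5 genes in 786-O. In RPTEC they were called in 3 of 6, 1 of 5 and 1 of 5 genes. COL1A1, LUM, CDH5 and PDGFRA were called in 6, 5, 4 and 2 RPTEC libraries and in 1, 1, 0 and 0 786-O libraries. CSF1R was called in 1 library of each line.

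Sequence was at hand where a member reached the start of an annotated gene. This was so for 14 members, which touched 17 promoter windows running from 250 bases before to 50 bases after a gene start. The stretches below, from RefSeq on GRCh38.p14, belong to the 6 highest-ranked protein-coding genes among them that had no RPTEC peak anywhere in the gene. Each is the part of the window that lies inside the member, printed 5′ to 3′ on the strand of the gene and ending at most 30 bases past its start. Capitals mark GGAC, the core of the m6A consensus. SAMD11 encodes a SAM-domain protein (chr1:925481-925760, plus strand), GLS2 the liver-type glutaminase (chr12:56488132-56488411, minus strand), MDGA2 a cell surface protein of neurons (chr14:47675576-47675855, minus strand), ENPEP glutamyl aminopeptidase of the tubule brush border (chr4:110476009-110476184, plus strand), H2BC9 a replication-dependent histone H2B (chr6:26251470-26251643, plus strand) and TMEM141 a small membrane protein (chr9:136791193-136791373, plus strand).
SAMD11: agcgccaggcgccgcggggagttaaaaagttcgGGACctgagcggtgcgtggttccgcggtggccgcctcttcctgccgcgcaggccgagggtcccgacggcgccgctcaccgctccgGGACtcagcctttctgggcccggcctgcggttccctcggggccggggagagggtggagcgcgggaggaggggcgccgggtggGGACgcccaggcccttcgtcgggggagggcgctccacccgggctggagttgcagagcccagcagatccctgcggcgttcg
GLS2: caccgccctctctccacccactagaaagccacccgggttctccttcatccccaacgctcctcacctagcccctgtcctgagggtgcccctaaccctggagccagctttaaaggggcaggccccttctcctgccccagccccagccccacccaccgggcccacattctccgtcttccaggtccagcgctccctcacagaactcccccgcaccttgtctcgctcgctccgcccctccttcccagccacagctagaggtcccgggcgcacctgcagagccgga
MDGA2: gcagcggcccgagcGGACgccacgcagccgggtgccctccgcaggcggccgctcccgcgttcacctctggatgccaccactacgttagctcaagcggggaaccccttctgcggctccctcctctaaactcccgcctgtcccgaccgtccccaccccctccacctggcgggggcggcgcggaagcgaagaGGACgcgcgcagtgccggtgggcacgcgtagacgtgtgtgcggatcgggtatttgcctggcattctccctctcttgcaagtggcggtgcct
ENPEP: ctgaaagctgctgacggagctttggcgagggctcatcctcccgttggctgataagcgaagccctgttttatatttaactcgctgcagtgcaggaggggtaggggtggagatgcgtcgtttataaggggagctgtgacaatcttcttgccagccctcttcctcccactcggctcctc
H2BC9: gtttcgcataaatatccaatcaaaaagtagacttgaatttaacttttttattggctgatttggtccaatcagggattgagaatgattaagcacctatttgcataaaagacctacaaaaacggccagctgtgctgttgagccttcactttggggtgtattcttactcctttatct
TMEM141: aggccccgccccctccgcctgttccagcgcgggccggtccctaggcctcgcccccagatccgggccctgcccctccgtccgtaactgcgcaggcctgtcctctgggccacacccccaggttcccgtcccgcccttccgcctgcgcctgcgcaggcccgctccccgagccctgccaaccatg

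GGAC occurred 3 times in the SAMD11 stretch and 2 times in that of MDGA2, and 0 times on the gene's strand in the other four. In both genes every GGAC lay before the gene start of the window, so none is shown to be part of the transcript. The median summit of the SAMD11 member lay outside the stretch shown. Whether any of these sites is methylated was not tested. Over the whole windows, 6 of the 11 protein-coding genes reached by a member held GGAC on the gene's strand and 11 held it on either strand, where 66.3% and 87.4% of all 35116 promoter windows did. GGACT, which contains GGAC, occurred 1 time in the SAMD11 stretch and in no other stretch shown, and 25.3% of all windows held it on the gene's strand. The GC content ranged from 36.8% in H2BC9 to 76.2% in TMEM141.

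Members were found outside protein-coding genes more often than shared regions were. Of the 167 members, 111 (66.5%, Wilson 95% interval 59.0% to 73.2%) overlapped the body of a protein-coding gene, 25 (15%) a long noncoding RNA gene only, 5 (2.99%) another annotated gene only, and 26 (15.6%) no annotated gene. Among the 4079 regions called in all 16 libraries, 95.3% overlapped a protein-coding gene and 1.37% no gene. The 3136 regions called in all 8 786-O and in 1 to 7 RPTEC libraries were between these, with 89.3% and 3.64%. The mirror set, 144 regions called in all 8 RPTEC and no 786-O library, had 84.7% in protein-coding genes and 8.33% in no gene. The interval of the members lies below those of the other 3 sets. These intervals cover counting error over regions only, and the members were selected on calls, so no test of the difference was made.

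Members were lower in the score ranking of the 786-O libraries than regions called in all 16 libraries. The score has no stated scale, so each peak was ranked within its own list, with 100 as the highest percentile, and a region took its highest-scoring peak. The mean percentile over the 8 786-O libraries had a median of 57.5 over members (quartiles 45.5 and 69.2, range 16.6 to 99.0), against 63.1 for regions called in 1 to 7 RPTEC libraries and 74.0 for those called in all 16. The mirror set had a median of 64.2 over the RPTEC libraries, in which the regions called in all 16 were not ranked here. In single 786-O libraries the median of the members was 58.4 to 65.7, and that of the regions called in all 16 was 75.1 to 78.1. The ranges of these medians did not overlap. Both sets were chosen by calls, which need a peak to pass a threshold, so the difference may be in part built in. It was not tested. Of the 1845 regions with the highest mean percentile among the 7382, 1.08% were members, and of the 1846 with the lowest, 3.90% were. The upper end of the ranking was not empty of members: 27 had a mean percentile of at least 80, and 35 were in the upper part of every list, above its median.

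**Figure D1:**
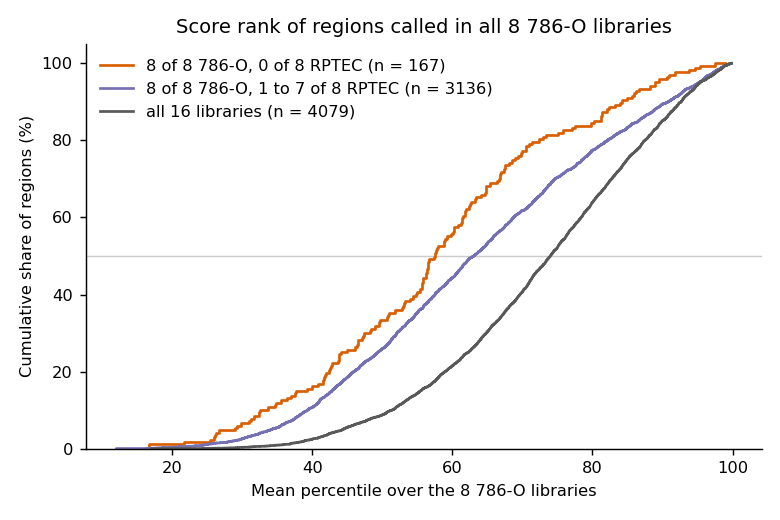
Cumulative share of regions (%) against the mean percentile of the score over the 8 786-O libraries, for the 167 member regions, 3136 regions called in 1 to 7 RPTEC libraries and 4079 regions called in all 16 libraries. The member curve lies to the left, with a median of 57.5 against 63.1 and 74.0.

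The percentile of members varied more from library to library than that of regions called in all 16. Percentiles and summits of the mirror set are over the RPTEC libraries, in which the other sets were not measured here. The standard deviation of a region's percentile over the 8 libraries had a median of 16.9 for members, 15.3 for regions called in 1 to 7 RPTEC libraries, 11 for regions called in all 16 and 17.5 for the mirror set over the RPTEC libraries. The summits of the 8 libraries spread over a median of 466 bp within a member, 371 bp within a region called in all 16, 347 bp within one called in 1 to 7 RPTEC libraries and 358 bp in the mirror set. They fell within 100 bp of each other in 13.2% of members, 21.6% of regions called in all 16, 22.4% of those called in 1 to 7 RPTEC libraries and 16% of the mirror set. The median width was similar, 1070 bp (344 to 6130 bp) for members and 1150 bp for regions called in all 16, and a library had on average 1.20 and 1.23 peaks in a region. The nearest RPTEC peak lay 156 bp to 2598341 bp from a member, with a median of 18400 bp. It was within 1000 bp for 17 members.

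The member with the highest rank lay in PDZK1, which encodes a scaffold that anchors transporters at the brush border of the proximal tubule. This region (chr1:145686684-145687121, 438 bp) had a lowest percentile of 95.8, a median of 99.3 and a highest of 99.8 over the 8 libraries, and all 8 summits fell within 31 bp. PDZK1 had 2 to 4 peaks in each 786-O library. In RPTEC it had 1 peak, in WT replicate 2, which lay outside the member.

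C1QL1, a secreted C1q-like protein best known as a synapse organizer, held the second (chr17:44959921-44960621). Its percentile was 94.5 at the lowest, 97.3 at the median and 99.5 at the highest, with summits within 25 bp. It had 3 to 5 peaks per 786-O library and 0 in every RPTEC library. Its paralog C1QL4 also held a member (chr12:49332688-49333453), with percentiles of 53.1, 84.3 and 90.0 at the lowest, median and highest, and had 0 RPTEC peaks as well. The spread was wider for C1QL4, where SETD2KO-1R replicate 2 stood below the other libraries.

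BST2, the interferon-induced protein tetherin, came next by rank among genes (chr19:17403204-17403565), with a lowest percentile of 81.9, a median of 97.9 and a highest of 99.8. The lowest values, 81.9 and 89.9, were both from SETD2KO-1R. EEF1A2, a translation elongation factor normally restricted to muscle and neurons, held a region at 83.7, 91.0 and 99.6 (lowest, median, highest; chr20:63490662-63491012), with summits within 19 bp. EEF1A2 had 5 to 9 peaks in each 786-O library and a single peak over all RPTEC libraries, in SETD2KO-1R replicate 1.

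**Figure D2:**
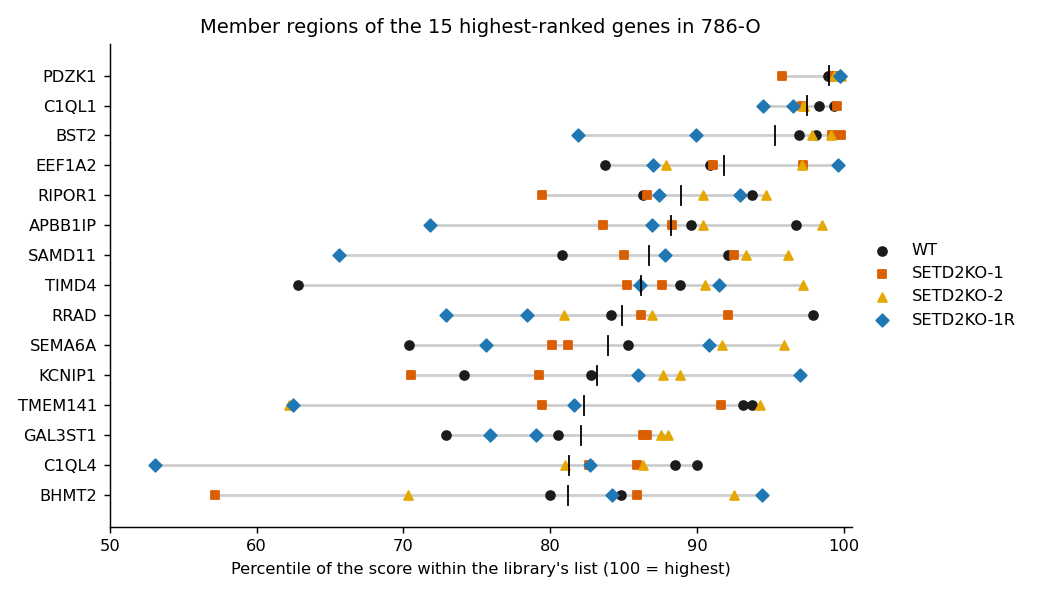
Percentile of the score within each library's list (x axis, 100 = highest) for the highest-ranked member of each of 15 genes (y axis), with 1 symbol per 786-O library, coloured by line, a grey line from the lowest to the highest library and a black tick at the mean. PDZK1 and C1QL1 stay above 94 in all 8 libraries, while BHMT2, C1QL4, TMEM141 and TIMD4 reach from the 90s to below 63.

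RIPOR1, an inhibitor of RhoA, came next, with a mean of 88.9 ± 5.05 (SD, n = 8 libraries) in the higher of its 2 members. APBB1IP, an adaptor between Rap1 and integrin activation, had a member at 71.8, 89.0 and 98.5 (chr10:26566574-26567516), 518 bp from the annotated end of the gene. TIMD4, a receptor for phosphatidylserine on apoptotic cells, held 2 members, with means of 86.2 ± 10.2 and 81.4 ± 13.8 (SD, n = 8 libraries). RRAD, a Ras-related GTPase, also held 2, with means of 84.9 ± 7.84 and 81.4 ± 15.4. SAMD11 held 2 members as well, with means of 86.7 ± 9.85 and 75.9 ± 13.2. APBB1IP, TIMD4, RRAD and SAMD11 had no RPTEC peak anywhere in the gene, although the second SAMD11 member also overlaps NOC2L, which was called in all 8 RPTEC libraries. SEMA6A, a transmembrane semaphorin, and KCNIP1, a potassium channel subunit, followed with means of 83.9 ± 8.67 and 83.2 ± 8.54.

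Some single genes known from the kidney tubule or from metabolism also held members, and these were picked after their values were seen, with no list or background behind them. None of the 8 proximal tubule markers and 0 of 380 solute carrier genes held a member. The genes picked were BHMT2, a methyltransferase of the methionine cycle, GNMT, which disposes of excess S-adenosylmethionine, GLS2, ENPEP, CDHR5, a cadherin of the brush border, DIO1, the deiodinase that activates thyroxine, and GAL3ST1, which makes sulfatide. GAL3ST1 had 72.9, 83.4 and 88.0 at the lowest, median and highest library (chr22:30555166-30556344), with summits within 35 bp. BHMT2 had 57.2, 84.5 and 94.4 (chr5:79088215-79088947), and ENPEP 37.9, 65.4 and 75.8. The other four were lower and more variable, from 59.3 ± 28.8 for GLS2 and 54.8 ± 25.9 for GNMT to 46.6 ± 22.4 for CDHR5 and 41.6 ± 20.6 for DIO1 (mean ± SD, n = 8). None of these genes had an RPTEC peak, and each had 1 to 3 peaks per 786-O library, except DIO1 with 1 to 2 and CDHR5 with 1 to 7. The GNMT region also lies in the readthrough gene CNPY3-GNMT, which was called in 7 RPTEC libraries.

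At the level of genes, 95 protein-coding genes held a member, 0.497% of the 19126 on the autosomes. Without 786-O SETD2KO-1R replicate 2 there were 144 such genes. Of these 95, 45 (47.4%, Wilson 95% interval 37.6% to 57.3%) had no peak in any RPTEC library over the whole gene body, 15 had one in 1 to 3 libraries, 14 in 4 to 7, and 21 (22.1%) in all 8. Over the 6205 protein-coding genes with a peak in all 8 786-O libraries, 0.919% had no RPTEC peak and 72.2% had one in all 8. Under a rule of at least 7 786-O and at most 1 RPTEC library, 18.6% of 381 genes had no RPTEC peak. The RPTEC calls inside a member were used to choose it, so a lower RPTEC count in these genes is in part built in. The 2 ends of this distribution are different cases: genes without any RPTEC peak, and genes called in both lines with a region that no RPTEC library called. A missing call in such a region does not show that m6A was absent there.

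**Figure D3:**
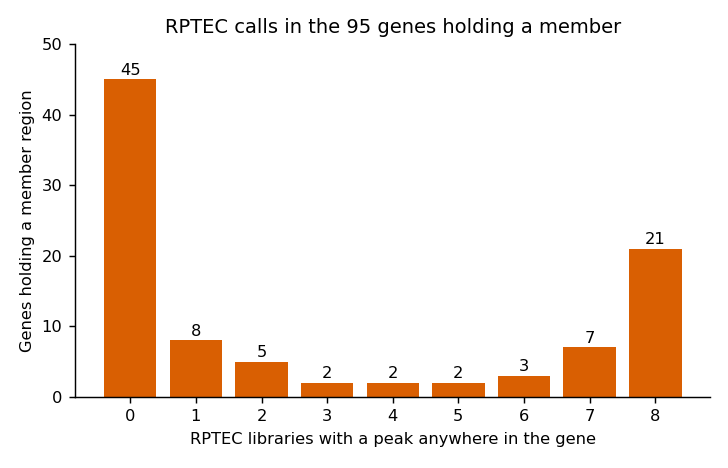
Number of genes holding a member (y axis) by the number of RPTEC libraries with a peak anywhere in the gene (x axis, 0 to 8). The 95 genes fall mainly at the ends, with 45 at 0 and 21 at 8 libraries.

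Among the 45 genes with no RPTEC peak, those with the highest mean percentile were C1QL1, APBB1IP, SAMD11, TIMD4, RRAD, TMEM141, GAL3ST1, C1QL4, BHMT2 and TRABD2B. TRABD2B, a metalloprotease that acts on Wnt proteins, had 2 members, with means of 72.9 ± 15.9 and 62.7 ± 19.6, and 5 to 31 peaks per 786-O library. GALNT9, a glycosyltransferase that starts O-linked chains, had 3 members and 8 to 18 peaks per 786-O library. MDGA2 had 4 members and 8 to 14 peaks per library. None of these 3 genes had a peak in any RPTEC library. The means of their members were 53.2 to 60.1 in GALNT9 and 25.4 to 64.1 in MDGA2, where the lowest is among the lowest-ranked members of all.

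Other genes were called in RPTEC as well, with fewer peaks. RRM2, a subunit of ribonucleotide reductase, held 2 members, with means of 80.2 ± 11.2 and 70.5 ± 10.5, and had 10 to 24 peaks per 786-O library and 1 to 5 per RPTEC library. RIPOR1 had 11 to 19 and 4 to 10. Its 2 members differed from each other: the first, 1305 bp from the gene start, kept to 79.4 to 94.7 in all 8 libraries, while the second ranged from 2.58 to 89.6. FRMD4A, a scaffold of epithelial polarity, held 4 members, 3 of them within 6201 bp near the start of the gene, with 14 to 40 peaks per 786-O and 4 to 16 per RPTEC library. In KCNIP1 the number of peaks was nearly equal, 112 over the 786-O and 111 over the RPTEC libraries, and 3 regions of the gene were nevertheless called in all 8 786-O libraries and no RPTEC library. HECW1, a ubiquitin ligase, had 3 members and 81 peaks over the 786-O libraries, against 1 over the RPTEC libraries.

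**Figure D4:**
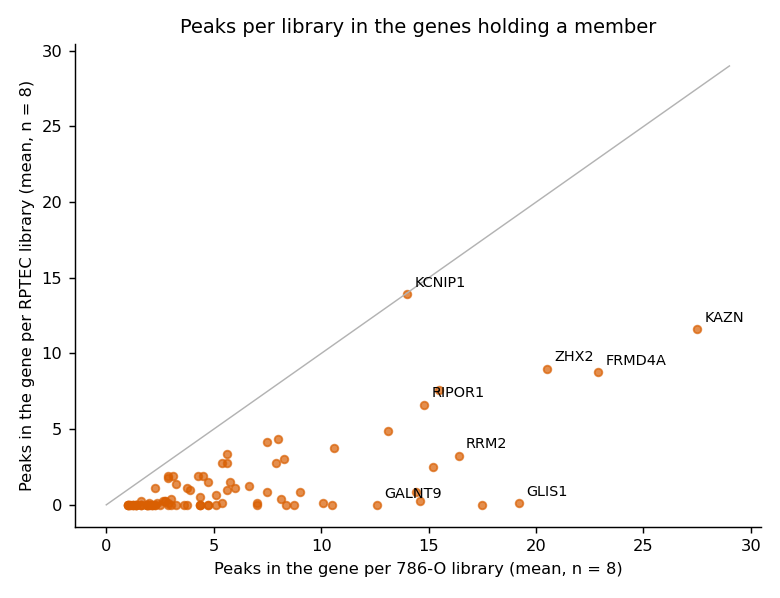
Mean number of peaks in the gene per 786-O library (x axis) and per RPTEC library (y axis), n = 8 libraries each, for the 95 genes holding a member; the grey line marks equal numbers. KCNIP1 lies at 14 and 13.9, near the line, whereas KAZN lies at 27.5 and 11.6, FRMD4A at 22.9 and 8.75, and GLIS1 at 19.2 and 0.125.

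The position of members along the gene differed in both directions from that of regions called in all 16 libraries, with fewer past the midpoint and more close to either end. These differences were not tested. A strand was known for 77 of the members that lay in exactly 1 protein-coding gene. Their median position was 56.9% of the way from the gene start to the gene end, against 75.6% for 3001 regions called in all 16 libraries, and 58.4% against 69.2% lay in the second part of the gene, past its midpoint. Within 1000 bp of the gene start were 10 members (13.0%), and 10 (13.0%) lay within 1000 bp of the gene end, where the regions called in all 16 libraries had 7.70% and 6.93%. Among regions called in 1 to 7 RPTEC libraries 13.7% lay near the start, 7.13% near the end and 60.0% past the midpoint, and in the mirror set 9.41%, 7.06% and 65.9%. The members of APBB1IP and ROR2 lay 518 bp and 940 bp from the annotated end of the gene, and that of FGFR2 1585 bp from it. Exons, introns and untranslated regions were not resolved, since gene bodies alone were used here.

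Of 16 gene lists, 6 had a gene with a member and 10 had none. Receptor tyrosine kinases had 2 of 58 genes (3.45%), FGFR2, the receptor for fibroblast growth factors, and ROR2, a receptor for WNT5A. FGFR2 was low and ROR2 higher in the ranking, at 31.7 ± 12.9 and 69.9 ± 7.81 (mean percentile ± SD, n = 8), and neither gene had an RPTEC peak. Semaphorins and plexins had 2 of 27 genes (7.41%), SEMA5A and SEMA6A, both called in 5 RPTEC libraries. Secreted growth factors and cytokines had BMP8B, Wnt and Notch genes had MFNG, a glycosyltransferase that modifies Notch, cadherins had CDHR5, and ZNF zinc finger genes had ZNF442, 1 of 467 (0.214%). BMP8B had 2 members, with means of 29.3 ± 19.2 and 29 ± 14, MFNG 1 at 51.8 ± 33.0 and ZNF442 1 at 57.7 ± 12.7. These shares stand beside 0.497% of all protein-coding genes, and with 1 or 2 genes a list nothing particular to a list can be read from them.

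Lists with no member included 44 hypoxia-inducible targets, 32 kidney lineage transcription factors, 35 epithelial junction and keratin genes, 32 mesenchymal genes, 25 m6A writers, readers and erasers, 39 HOX cluster genes and 380 solute carrier genes. Many of these genes did carry m6A in 786-O: 22 of the hypoxia-inducible targets, 13 of the kidney factors, 19 of the m6A genes and 23 of the HOX genes had a peak in all 8 786-O libraries, and 0 of them lacked an RPTEC peak, beside 0.919% of all such genes. Among solute carriers 106 had a peak in all 8 786-O libraries, of which 2 had no RPTEC peak in the gene. At that background these counts show nothing particular to the lists.

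The members were unevenly placed over the chromosomes. Chromosome 1 had 28, chromosome 5 had 15, and chromosomes 9 and 21 had 12 each, while chromosome 18 had 0. Relative to the regions called in all 8 786-O libraries, members were most frequent on chromosome 21, with 12 of 128 (9.38%, beside 2.26% overall). Of these 12, 8 lay on the short arm (chr21:5035518-8235627), which carries multicopy sequence, and 4 elsewhere. Next came chromosome 1 with 28 of 702 (3.99%) and chromosome 5 with 15 of 380 (3.95%). Chromosome 19 had 7 of 635 (1.10%). Where neighbours lay within 50000 bp of each other they were taken as a group: 58 members fell into 24 such groups of 2 to 4, and 109 stood alone.

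One such group of 4 covered 31996 bp at the start of chromosome 1 (chr1:912351-944346), over LOC284600, LINC02593, SAMD11 and the edge of NOC2L, with means of 56.5 to 86.7. Another group of 4 (chr20:63490662-63532065) held the members of EEF1A2 and of PTK6, a cytoplasmic tyrosine kinase of epithelia, with means of 49.7 to 91.8. On chromosome 12, beyond the members in GALNT9, lay a group of 3 in no annotated gene (chr12:132379540-132390076), whose highest mean was 88.9. On chromosome 21, a group of 4 (chr21:6084459-6098987) and a group of 2 (chr21:8228185-8235627) were both on the short arm. Regions in no annotated gene on chromosome 9, at chr9:63395512-63401641, chr9:65206329-65209519 and chr9:65209618-65210776, had means of 94.6, 91.0 and 93.8, and also lie in a segment rich in near-identical copies beside the centromere. How reads with several matches were placed is not given in the sources used here, so the position of members in such copies is uncertain.

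The peak calls do not depend on SETD2 status by construction, since all 8 786-O libraries had to call a member, but the ranks could differ between SETD2KO and SETD2-expressing libraries. The percentiles were turned into normal scores, on which 0 is the middle of a list and 1 is a standard deviation, and compared with limma over all 7382 regions called in all 8 786-O libraries. With Benjamini-Hochberg adjustment over these regions, limma called 0 of 167 members, and 0% of all regions, in each of the 3 comparisons: SETD2KO against SETD2-expressing, SETD2KO against WT, and SETD2KO-1R against SETD2KO-1. These comparisons share libraries. With line as a random block, limma called 9 members (5.39%, against 1.64% of all regions) for SETD2KO against WT, at an estimated correlation of -0.444 within lines.

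Before adjustment, p was under 0.05 for 23 members (13.8%) in the first comparison, where 7.18% of all regions were, for 20 (12%) against 6.29% in the second and for 22 (13.2%) against 5.95% in the third. Members also had a wider residual spread between replicates, with a median residual SD of 0.456 normal scores against 0.389 in the other regions. The members did not move one way: 92 of 167 were higher in SETD2KO, and the median difference between SETD2KO and SETD2-expressing libraries was 0.035 normal scores, against -0.018 over all regions. In 6 members (3.59%) all 4 SETD2KO libraries ranked above all 4 SETD2-expressing libraries, where 1.73% of all regions did, and in 3 (1.80%) all 4 ranked below, where 2.06% did. The latter were in ICOSLG, HSF2BP and the noncoding CH507-42P11.6.

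**Figure D5:**
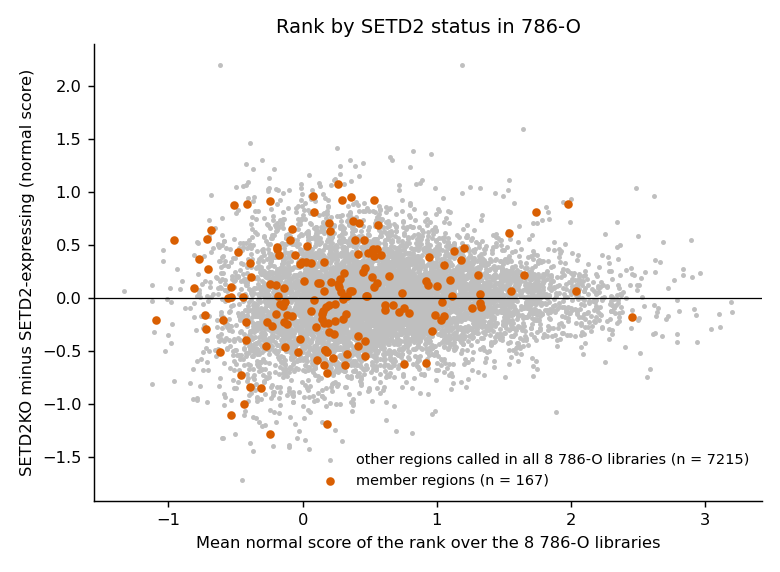
Difference between SETD2KO and SETD2-expressing libraries (y axis, normal score) against the mean over the 8 786-O libraries (x axis, normal score), for 167 member regions and 7215 other regions called in all 8 786-O libraries. Members lie on both sides of 0 with a median of 0.035, and limma called 0 of them after adjustment.

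Between SETD2KO and SETD2-expressing libraries the member with the smallest p lay in ICOSLG, which encodes the ligand of the T cell costimulator ICOS (chr21:44228265-44229289). It had percentiles of 59.0 and 50.7 in WT and 61.0 and 85.6 in SETD2KO-1R, but 22.4 and 16.9 in SETD2KO-1 and 20.6 and 15.6 in SETD2KO-2. The SETD2KO libraries were thus all below the SETD2-expressing ones, by a difference of -1.28 normal scores (SE 0.26), which did not pass adjustment in limma (adjusted p = 0.444). Between SETD2KO-1R and SETD2KO-1 the difference was 1.53 (SE 0.37, limma adjusted p = 0.655).

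DIO1 showed the reverse order (chr1:53895543-53896158). Its percentiles were 76.4 and 53.6 in SETD2KO-1 and 50.5 and 52.3 in SETD2KO-2, above 23.4 and 38.8 in WT and 14.8 and 22.8 in SETD2KO-1R. The difference was 0.92 normal scores (SE 0.26, limma adjusted p = 0.523). RNGTT, the mRNA capping enzyme, had the same order in 1 of its 2 members, at 65.7, 64.5, 67.6 and 76.8 in the SETD2KO libraries and 29.2, 34.9, 44.2 and 42.2 in the SETD2-expressing libraries, with a difference of 0.81 (SE 0.24, limma adjusted p = 0.523). The other RNGTT member had a difference of -0.23 (SE 0.30, limma adjusted p = 0.948), opposite in sign to the first.

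In BST2 the low values were those of SETD2KO-1R, 89.9 and 81.9, against 99.2 and 99.8 in SETD2KO-1, while WT, at 96.9 and 98.1, was close to the SETD2KO libraries. Here SETD2KO-1R and SETD2KO-1 differed by -1.55 normal scores (SE 0.36, limma adjusted p = 0.655). In 1 of the 2 members of PTK6, WT had 42.5 and 3.34 and the SETD2KO libraries 66.0 to 89.9, a difference of 1.77 (SE 0.48, limma adjusted p = 0.570), and SETD2KO-1R had 56.8 and 88.0. In the other PTK6 member the same difference was 0.75 (SE 0.42, limma adjusted p = 0.853).

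The values on either side of the rule are given as a description. Outside it, 81 regions were called in all 8 786-O and in 1 RPTEC library, with a median of 52.7, and 225 in 7 786-O and no RPTEC library, with a median of 49.3. Among the former the highest means were in RNASET2 (95.7), FN1 (92.6) and PARK7 (92.5). Among the latter they were in EEF1A2, with 2 regions at 99.7 and 99.1 (chr20:63495991-63496915 and chr20:63488144-63488807), and OAZ1 (92.7). Inside the rule, the lowest members in protein-coding genes were in PSD2 (16.6), MDGA2 (25.4) and LOC128966726 (26.2). Thus the EEF1A2 regions of highest rank were left out by 1 missing call in 786-O, while members of low rank were kept.

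In 1 of the 2 members of HSF2BP, a partner of BRCA2 in meiosis, SETD2KO-1R had 72.7 and 74.3 against 18.4 and 25.7 in SETD2KO-1, a difference of 1.40 (SE 0.36, limma adjusted p = 0.657), and in the other the difference was 1.31 (SE 0.50, limma adjusted p = 0.794). In KAZN, a scaffold of cell junctions, the order was the reverse, with 24.5 and 44.6 in SETD2KO-1R and 66.3 and 88.7 in SETD2KO-1 (difference -1.23, SE 0.40, limma adjusted p = 0.788). PIGZ, a mannosyltransferase of GPI anchors, ranked lower in SETD2KO, at 32.3, 33.9, 4.38 and 25.4, than in SETD2-expressing libraries, at 52.7, 32.1, 55.9 and 64.0, and the 2 sets overlapped (difference -0.84, SE 0.29, limma adjusted p = 0.614).

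Among members in a protein-coding gene, the 3 smallest p-values per direction and comparison in limma also included FAM83H, EPN1, HECW1 and GNMT. Their libraries of one line were often far apart. Members outside protein-coding genes, some with smaller p, are not covered by this rule. The region shared by FAM83H, a keratin-binding protein, and IQANK1 had 78 and 88.1 in WT and 69.2, 16.9, 13.2 and 46.8 in SETD2KO (difference -1.39, SE 0.47, limma adjusted p = 0.677). EPN1, an endocytic adaptor, had 51.8 and 4.6 in WT and 33.0, 30.3, 86.9 and 73.5 in SETD2KO (difference 1.02, SE 0.44, limma adjusted p = 0.767). In 1 of its 3 members HECW1 had 81.8 and 65.9 in WT and 14.1, 27.2, 68.9 and 58.6 in SETD2KO (difference -0.90, SE 0.32, limma adjusted p = 0.677). The WT and SETD2KO values overlapped in EPN1 and in HECW1. GNMT had 63.5 and 72.5 in SETD2KO-1R and 7.35 and 27.2 in SETD2KO-1 (difference 1.5, SE 0.45, limma adjusted p = 0.788).

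The size of the set rested on the number of libraries required, the length of the lists and how overlap was counted. When every list was cut to its 18432 highest-scoring peaks, the rule gave 59 members, which overlapped 50 of the 167, in 38 genes, of which 44.7% had no RPTEC peak. When at least 50% of the region had to be covered in each 786-O library, 44 remained.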

How the data were processed

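m6A was measured by MeRIP-seq in 16 IP libraries, 8 from 786-O and 8 from RPTEC, grouped by line from the sample labels. Per the labels and the methods, the authors used STAR, HTSeq and MACS2 on hg38, with a q-value threshold of 0.05, and called peaks of IP over Input for each library. Each deposited peak carries a score, in whole numbers whose scale is not stated, and a summit offset. The 16 Input samples have no list and were not used here. Autosomal peaks (457526 of 474004) were merged where they overlapped by at least 1 bp. Scores were used only as ranks within a list. Genes, start windows and strands came from RefSeq on GRCh38.p14, with strand for 15101 of 19126 autosomal protein-coding genes. Ranks were compared with limma 3.58.1 on normal scores, with a cell mean for each of the 4 lines and Benjamini-Hochberg adjustment. The authors' differential analysis rests on read counts and was not repeated.

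The members, gene lists and tests were chosen with earlier results of these data known. Named genes, among members in a protein-coding gene, were the 15 of highest mean percentile, the 10 with the most members, the 10 of highest rank without an RPTEC peak, list genes holding a member, the 3 smallest p-values per direction and comparison, and the 3 regions of highest rank on either side of the rule; other genes were named after their values were seen. The calling of members was tested on regions planted in the lists. The limma comparison of SETD2KO with SETD2-expressing libraries was tested on simulated scores. The alternatives were shorter lists, peaks of at least 288 bp, merging within 100 bp, 200 bp bins, 50% coverage, a relaxed rule, other rank scales, a replicate block, line as a random block and each library left out. Scripts ran in R 4.3.3 and in Python 3.11.15 with SciPy 1.17.1, pandas 2.3.3, NumPy 2.4.6 and Matplotlib 3.10.9.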

Additional observations from a re-analysis of the deposited data

Results flagged for a closer look

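Over 36 sets of 4 libraries tested for a single outlying library with Dixon's ratio, 2 passed its 95% critical value, and chance alone passes about 1 set in 20. In PDZK1 the SETD2KO libraries gave a ratio of 0.875, because SETD2KO-1 replicate 2 was at 95.8 while the other three were at 99.3 to 99.8. In C1QL1 the ratio was 0.917, because SETD2KO-1 replicate 1 was at 99.5 and the others at 97.1 to 97.3. Both genes stayed among the highest ranks of every list.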

How the results depend on the processing

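The number of members depended on the number of libraries required, on list length and on how overlap was counted. Keeping the 50% of peaks with the highest scores gave 50 members, which overlapped 35 of the 167, in 29 genes, of which 22 were among the 95, at a median percentile of 83.8, and equal list lengths gave 59 in 38 genes at 80.2. Cutting by score raises the median by construction. With 200 bp bins there were 327 members, 33.6% of the genes had no RPTEC peak, and the median was 62.5. With at least 50% of the region covered in each 786-O library, 44 members in 33 genes had a median of 65.8. With at least 7 786-O and at most 1 RPTEC library there were 633 members in 381 genes, 18.6% of them without an RPTEC peak, at a median of 51.3. A minimum peak length and merging within 100 bp kept all 4 values close, with 151 and 168 members.

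Leaving out each library in turn gave 171 to 243 members, 99 to 144 genes, 38.2% to 48.0% of genes without an RPTEC peak and a median of 56.1 to 58.6. The upper end for genes, 144, came without 786-O SETD2KO-1R replicate 2, the shortest 786-O list. In limma, 0 members were called (0 to 0 over the libraries left out).

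The deviations of libraries with one replicate number were compared in 6 pairs of lines. They correlated at 0.297 between SETD2KO-2 and SETD2KO-1R and at -0.0673 to 0.0913 in the other pairs. The labels give no batch, and these values cannot tell whether libraries with one number were handled together. With a replicate block limma called 0 members in each comparison. With line as a random block, limma called 9 members for SETD2KO against WT, 5.39% of them against 1.64% of all regions, at an estimated correlation of -0.444 within lines; a negative value narrows the error of this comparison. That block could not be fitted for SETD2KO-1R against SETD2KO-1, where lines and groups coincide. Depth at each region is unknown, so a missing call is not evidence that m6A was absent.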

Other observations

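At the level of whole genes, 57 protein-coding genes had a peak in all 8 786-O and in no RPTEC library, and 44 of them held a member. The other 13 had no single region that all 8 libraries called alone. They were E2F2, a cell cycle transcription factor, SEMA5B, TM4SF18, DOK7, SRRM3, JPH1, MROH6, SERTM1, DLEU7, CATSPERG, MYL9, a smooth muscle myosin light chain, and the glucose transporters SLC5A2 and SLC2A10. Their number of peaks ran from 1.12 per 786-O library in E2F2 to 4.62 in SEMA5B, with 2.00 in SLC5A2, 4 in MYL9 and 4.25 in SLC2A10.

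On the X chromosome, which the members leave out, 2 regions were called in all 8 786-O and no RPTEC library, and 7 in all 8 RPTEC and no 786-O library.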
